A study of Homo sapiens with 12 samples.

Results

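The response to interferon gamma (IFNγ) was examined in U251 cells that carried siPDL1-1, 1 of the 2 siRNAs used against *PD-L1*. U251, a long-established line from a human glioblastoma, was labelled wild type, and polyA RNA was sequenced. The comparison sets 2 libraries of siPDL1-1 cells given IFNγ at 100 U/ml for 24 h against 2 libraries of unstimulated siPDL1-1 cells. These are 4 of the 12 libraries of the series, and they were chosen by their labels, not by any measured value. The remaining libraries hold U251 cells with the control siRNA (siNC) or with the other *PD-L1* siRNA (siPDL1-2), each unstimulated or given the same IFNγ treatment, with 2 libraries in each of the 6 groups. Every group was transfected 48 h before the stimulation began, so no untransfected cells are among them, and siPDL1-1 is a single siRNA sequence in a single cell line. The study's methods state that the libraries came from 2 independent experiments, while the labels only number them, and the p-values measure the spread between these libraries.

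IFNγ is a cytokine released mainly by activated T cells and natural killer cells. It binds the receptor chains IFNGR1 and IFNGR2, and the kinases JAK1 and JAK2 pass the signal to a DNA motif called GAS in front of early genes such as *IRF1*. IRF1 and the factors bound at GAS then raise the genes of antigen presentation, the guanylate binding proteins, the T-cell attracting chemokines and *CD274*, which encodes PD-L1. Type I interferons such as IFNβ and type III interferons (IFNλ) act through other receptors and through a complex called ISGF3, which holds STAT2 and IRF9. ISGF3 binds a different motif, the ISRE, in front of antiviral genes of the OAS, IFIT and MX families, and IRF proteins recognise closely related letters. In glioma cells the IFNγ response is known both for antigen presentation and for immunosuppressive products such as PD-L1 and IDO1.

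Promoter stretches of 6 responding genes are shown first, as examples of responding genes that hold these letters. The ISRE was searched as GAAANNGAAA and the GAS as TTCNNNGAA, on both strands, from 250 bases before to 50 bases after the start of each gene in the RefSeq promoters of GRCh38.p14. Of all 27305 promoters in that table, 3.65% held the ISRE letters, 7.88% the GAS letters, and 14 held an ISRE and a GAS match that overlapped. Among the 12678 promoters of genes tested here, the shares were 2.93% and 6.4%. Among 34 commonly cited ISGF3-type antiviral genes, 28 matched a promoter in the table, 20 of these (71.43%) held the ISRE letters and 7 (25.0%) the GAS letters, with 4 overlapping. Among genes that rose more with siPDL1-1 than with siNC, 97 matched, of which 35 (36.08%) held the ISRE letters and 12 (12.37%) the GAS letters, so most held neither. Most of the 34 ISGF3-type genes are in this set, so its share repeats part of the one before. Among genes that rose without such an excess, 644 matched, of which 64 (9.94%) held the ISRE letters and 59 (9.16%) the GAS letters. Of 12 matched genes of HLA class I and peptide loading, 6 held the ISRE letters, and of 11 class II genes 0 did. Of 52 genes of the G2/M phase of the cell cycle, 44 matched, and 2 (4.55%) held the ISRE letters and 3 (6.82%) the GAS letters. A match describes these letters only, and binding was not measured. The stretches run 5′ to 3′ on the strand of the gene, and capitals mark the matches on either strand. *OAS3* (chr12:112938301-112938473, plus strand) and *IFIT1* (chr10:89392477-89392559, plus strand) have 2 ISRE matches each and *IFI6* (chr1:27672246-27672378, minus strand) has 3, and these are antiviral genes that rose more with siPDL1-1 than with siNC. *TAP1* (chr6:32853793-32853868, minus strand), with 2 matches that overlap each other, and *CXCL10* (chr4:76023679-76023747, minus strand), with 1, hold the same letters, but their response did not pass the test of a difference from siNC. *IRF1* (chr5:132490859-132490927, minus strand) has a GAS match and no ISRE match.
OAS3: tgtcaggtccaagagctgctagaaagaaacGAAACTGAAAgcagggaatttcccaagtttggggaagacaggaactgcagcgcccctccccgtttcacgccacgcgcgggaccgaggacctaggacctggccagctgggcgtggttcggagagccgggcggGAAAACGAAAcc
IFIT1: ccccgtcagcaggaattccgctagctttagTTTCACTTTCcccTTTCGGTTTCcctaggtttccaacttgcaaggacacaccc
IFI6: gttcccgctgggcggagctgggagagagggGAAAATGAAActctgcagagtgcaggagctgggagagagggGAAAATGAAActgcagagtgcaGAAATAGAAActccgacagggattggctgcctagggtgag
TAP1: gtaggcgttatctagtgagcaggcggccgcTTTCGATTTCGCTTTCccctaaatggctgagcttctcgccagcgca
CXCL10: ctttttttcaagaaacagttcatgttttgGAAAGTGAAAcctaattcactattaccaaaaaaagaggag
IRF1: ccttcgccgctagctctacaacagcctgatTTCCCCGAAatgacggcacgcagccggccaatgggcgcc

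The siPDL1-1 libraries held 33791141 and 41611658 reads without IFNγ and 36339967 and 21870032 reads with it, within a range of 17101069 to 55657393 over all 12 libraries. Values are CPM, read counts scaled to library size by the authors, and 1 read was worth 0.0187 to 0.0586 CPM, so genes with under about 1 CPM in unstimulated cells rest on few reads. Of 45416 genes, 17982 had enough reads to be tested. All 8 glioma line markers were measured, with *VIM* at 3161 and 3139 CPM after IFNγ, while *GFAP*, which marks astrocytes, was low, with 7.25 and 6.85 CPM without IFNγ. Of 7 myeloid markers 5 were below the filter, *TYROBP*, *ITGAM* and *AIF1* were at 0 in all 4 siPDL1-1 libraries, and the 7 together came to 1.94 and 1.55 CPM without and 1.33 and 0.753 CPM with IFNγ. Of 6 T and NK cell markers 5 were below the filter, *CD3E* was at 0, and the list came to 5.57 and 6.31 CPM without and 4.28 and 3.43 CPM with IFNγ, nearly all of it from *CD4*. These are bulk libraries, so more RNA per cell and more cells that make a transcript cannot be told apart.

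*CD274*, the siRNA target (ENSG00000120217, chr9:5450503-5470566 of GRCh38, plus strand), was 2.67 and 2.73 CPM in the unstimulated siPDL1-1 libraries and 60.9 and 66.7 CPM after IFNγ. The log2 fold change (log2FC, computed on CPM plus 1, which understates the change of low genes) was 4.13 (standard error 0.076, FDR = 1.03e-15). In siNC cells the levels were 4.60 and 4.91 CPM without and 71.2 and 76.0 CPM with IFNγ, so both siPDL1-1 libraries lay below both siNC libraries in each condition. The reduction by siPDL1-1 in unstimulated cells passed the test, with a log2 fold change of -0.64 (FDR = 1.76e-05). *CD274* rose from a lower base, and the difference between the responses, 0.43 (standard error 0.11, FDR = 0.0399) on the log2 scale, did not pass the test. It passed with DESeq2's Wald test on the recovered reads, where it was 0.66 (FDR = 0.00954). With siPDL1-2, which left 37.5 and 35.0 CPM after IFNγ, the response was smaller, and siPDL1-1 exceeded it by 1.08 (standard error 0.11, FDR = 9.83e-06). *PDCD1LG2*, the gene of the second PD-1 ligand PD-L2 and a neighbour on chromosome 9, rose from 1.07 and 1.18 CPM to 20.5 and 20.2 CPM, a log2 change of 3.33 (standard error 0.096, FDR = 2.68e-13).

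In siPDL1-1 cells IFNγ changed 1236 of 17982 genes (6.87%), 1003 upward (5.58%) and 233 downward (1.30%), at FDR < 0.01 and a fold change over 1.5. In every one of these genes both stimulated libraries lay on one side of both unstimulated libraries. The same held for every gene called with siNC and with siPDL1-2. The share over all genes was not computed, so this adds no support beyond the calls. The increases were the larger changes: 467 genes had a log2 fold change over 1, 173 over 2 and 56 over 4, whereas 28 of the decreases were past 1 and 1 was past 2, a gene known by the clone name *AL035078.4* and picked out after its value was seen. The median over all genes tested was -0.016. With siNC, 1460 genes (8.12%) were called, 1200 upward (6.67%) and 260 downward (1.45%), and with siPDL1-2 947 genes (5.27%), 651 upward (3.62%) and 296 downward (1.65%). These 3 comparisons share no library, and the same 780 genes rose with siPDL1-1 and with siNC, which is 77.8% of the siPDL1-1 increases and 65% of those with siNC. With siPDL1-2 481 were shared, 48.0% of the siPDL1-1 increases and 73.9% of those with siPDL1-2. Of the decreases, 112 were shared with siNC (48.1% of those with siPDL1-1 and 43.1% of those with siNC) and 96 with siPDL1-2 (41.2% and 32.4%). The response itself differed from that with siNC in 174 genes (0.968%), toward higher values with siPDL1-1 in 160 (0.890%) and toward lower in 14 (0.0779%). The lower count was 50 without the second stimulated siPDL1-1 library and 11 to 21 without any other single library. It differed from that with siPDL1-2 in 876 genes (4.87%), toward higher values in 777 (4.32%) and toward lower in 99 (0.551%), and both tests use the same siPDL1-1 libraries. With 1 library left out these counts ran from 494 to 1216 and from 41 to 180, the highest without the first stimulated siPDL1-1 library. Before any stimulation, 720 genes (4.00%) differed between siPDL1-1 and siNC cells, 459 higher (2.55%) and 261 lower (1.45%). Below, a difference between responses is a difference of log2 fold changes, and it is called at the same limits.

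The largest increases, by the rule for named genes, were in genes that were near 0 without stimulation. *IDO1*, the first enzyme of tryptophan breakdown (ENSG00000131203, chr8:39902275-39928790, plus strand), had 0 and 1 reads in the unstimulated libraries and 8561 and 4952 reads after IFNγ, or 243 and 233 CPM. By reads this is a 17504-fold rise with a 95% counting interval from 3141 to 691429, and the log2 fold change with the pseudocount of 1 CPM was 7.88 (standard error 0.069, FDR = 2.38e-19). *CXCL10*, a chemokine that attracts T cells through CXCR3, went from 0.0870 and 0.0706 CPM to 226 and 261 CPM, a log2 change of 7.82 (standard error 0.086, FDR = 1.67e-18). *CD74*, the invariant chain of HLA class II, went from 0.145 and 0.0941 CPM to 251.2 and 235 CPM (log2FC 7.77, FDR = 6.46e-19), but it overlaps *TCOF1* on the other strand, and the authors counted both strands together. Next came the guanylate binding proteins *GBP4* (log2FC 7.67, FDR = 1.67e-18) and *GBP1* (log2FC 6.59, FDR = 2.38e-19), the apoptosis-linked *XAF1* (log2FC 7.19, FDR = 2.93e-18), the RNA-activated synthetase *OAS2* (log2FC 7.08, FDR = 4.18e-17), *APOL1* (log2FC 6.52, FDR = 8.99e-19), *IFIT3* (log2FC 6.36, FDR = 1.67e-18) and the phospholipase *PLAAT4* (log2FC 6.11, FDR = 2.44e-16). For *GBP4* the unstimulated libraries stood at 0.116 and 0.141 CPM and the stimulated ones at 221 and 238 CPM. Of the 10 genes, *XAF1*, *OAS2* and *IFIT3* are in the ISGF3-type list, and both *IFIT3* and its neighbours overlap *LIPA* on the opposite strand.

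**Figure D1:**
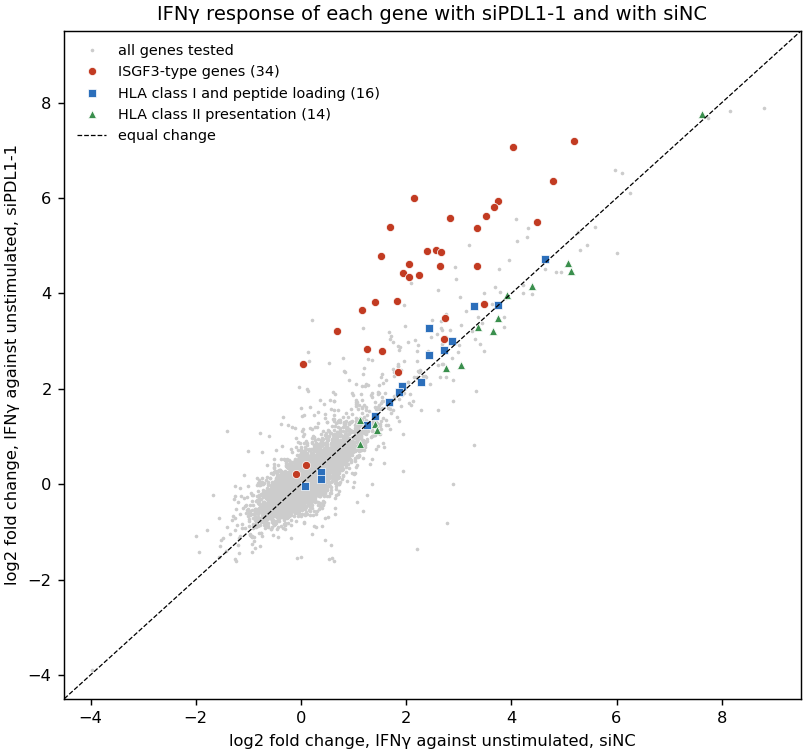
Each point is 1 of 17982 genes, with the log2 fold change after IFNγ in siNC cells on the x axis and in siPDL1-1 cells on the y axis, and the dashed line marks equal change. The 16 HLA class I and 14 class II genes lie near the line, with a called difference for *TAP2*, while 29 of the 34 ISGF3-type genes have a called excess above it.

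The plot of the response with siPDL1-1 against that with siNC sets the following groups beside each other. Upstream in the pathway, the receptor genes were not called, with *IFNGR1* at 70.5 and 71.3 CPM without and 70.4 and 74.9 CPM with IFNγ and *IFNGR2* at 37.6 and 38.7 CPM before and 35.8 and 38.8 CPM after IFNγ. *JAK1* (log2FC -0.016, FDR = 0.808) and *TYK2* (log2FC -0.13, FDR = 0.147) were not called either. Of the 11 receptor, kinase and STAT genes tested, 6 rose and 0 fell, the median log2 change being 0.69, against 0.56 with siNC. *STAT2*, which joins IRF9 in ISGF3, stood apart within the list. It went from 64.3 and 65.7 CPM to 416 and 391 CPM with siPDL1-1 and from 53.7 and 49.8 CPM to 134 and 132 CPM with siNC, and the response was larger with siPDL1-1 by 1.26 (standard error 0.069, FDR = 1.66e-08) on the log2 scale. *JAK2*, the kinase bound to IFNGR2, rose by 2.13 on the log2 scale (FDR = 2.16e-12) and *IRF9* by 1.78 on the log2 scale (FDR = 3.60e-12), with no called difference from siNC. *STAT5A* (log2FC 0.94, FDR = 1.92e-07) and *STAT6* (log2FC 0.69, FDR = 6.04e-04) were the smallest called increases of the list, and *STAT6*, at 0.580 and 0.730 CPM without IFNγ, overlaps the more abundant *NAB2* and *LRP1*.

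Of 6 interferon regulatory factors tested, 3 rose. *IRF1* carries the GAS match shown above and drives much of the secondary response. It went from 14.6 and 15.7 CPM to 361 and 337 CPM (log2FC 4.44, FDR = 5.10e-16), and the difference from siNC, where it reached 549 and 531 CPM, was -0.41 (FDR = 0.0411) and did not pass. *IRF2*, which competes with IRF1 at its sites, rose from 10.9 and 10.6 CPM to 28.5 and 35.0 CPM (log2FC 1.47, FDR = 4.22e-09). *IRF7*, which in many cells amplifies type I interferon production, was 2.93 and 3.81 CPM without and 2.89 and 1.74 CPM with IFNγ, and its log2 fold change of -0.41 (FDR = 0.155) did not pass. *IRF4* and *IRF8* were below the filter. Among 10 feedback inhibitors, 3 rose. *SOCS1*, which blocks JAK kinases, went from 0.667 and 0.612 CPM to 26.6 and 26.4 CPM (log2FC 4.07, FDR = 2.76e-13), whereas with siNC it reached 8.18 and 7.14 CPM. That difference was called (difference 1.46, standard error 0.17, FDR = 5.54e-05), with *RMI2* overlapping *SOCS1* on the other strand, but not with a pseudocount of 0.1 CPM (FDR = 0.0278), with edgeR (FDR = 0.105) or with DESeq2 (FDR = 0.143). *USP18* removes ISG15 from proteins and restrains the type I interferon receptor. It rose from 8.85 and 7.93 CPM to 118 and 115 CPM with siPDL1-1 and from 8.08 and 8.81 CPM to 19.4 and 20.6 CPM with siNC, a called difference of 2.49 (standard error 0.11, FDR = 1.08e-09). *SOCS3* rose by 0.71 on the log2 scale (FDR = 4.29e-07) and its response was not called different from that with siNC.

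Genes of antigen presentation rose with siPDL1-1, and their list medians were close to those with siNC. Of 16 genes of HLA class I and peptide loading, 13 rose and 0 fell, the median log2 change being 2.10, against 2.11 with siNC and 2.07 with siPDL1-2. The largest change was in *TAP1*, a subunit of the peptide transporter (chr6:32845209-32853978, minus strand), from 62.8 and 60.7 CPM to 1761 and 1573 CPM (log2FC 4.73, FDR = 2.37e-18). *HLA-B* went from 65.0 and 63.3 CPM to 904 and 866 CPM (log2FC 3.77, FDR = 1.61e-17). HLA class I genes resemble each other closely, so reads can be shared between them. *B2M*, the light chain, rose by 2.14 on the log2 scale (FDR = 3.61e-15) and *NLRC5*, the transactivator of class I genes, by 3.73 on the log2 scale (FDR = 5.25e-15). *TAP2*, the other subunit of the transporter, was the member with a called difference. It reached 732 and 684 CPM with siPDL1-1 and 388 and 379.8 CPM with siNC from unstimulated levels of 73.1 and 72.2 CPM with siPDL1-1 and 74.9 and 65.9 CPM with siNC, a difference of 0.83 (standard error 0.075, FDR = 4.13e-06). The chaperones *CALR*, *CANX* and *PDIA3*, which fold glycoproteins in general, were not called. All 5 immunoproteasome and PA28 genes rose, from *PSMB9* (4.52 and 4.21 CPM to 212 and 203 CPM, log2FC 5.28, FDR = 2.26e-17) to *PSME1* (log2FC 1.67, FDR = 6.71e-14), and 0 differed from siNC. *PSMB9*, *PSMB8* and *TAP1* lie side by side and overlap each other.

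All 14 HLA class II genes tested rose, the median log2 change being 3.25, against 3.50 with siNC and 3.40 with siPDL1-2, and 0 passed the test of a difference from siNC. The siPDL1-1 median depends on the pseudocount, at 4.79 with 0.1 CPM, 5.13 with edgeR and 5.13 with DESeq2. The median difference from siNC was -0.27, and -0.024 with DESeq2. In each of these settings all 14 rose and 0 differed from siNC. *CIITA*, the master regulator of class II, went from 2.49 and 2.24 CPM to 76.2 and 72.0 CPM (log2FC 4.48, FDR = 3.89e-15), and with siNC it reached 108 and 103 CPM, with a difference of -0.65 (FDR = 0.0120) that lay just outside the threshold. *HLA-DRA*, the alpha chain of HLA-DR, had 0 reads in both unstimulated libraries and 850 and 507 reads after IFNγ, at least 586-fold higher. In CPM it reached 24.1 and 23.9 with siPDL1-1 and 34.1 and 34.7 with siNC. The difference of -0.43 (FDR = 0.103) did not pass, although both siPDL1-1 libraries lay below both siNC libraries after IFNγ. The smallest increase was in *HLA-DQB1*, from 0.116 and 0.118 CPM to 0.851 and 1.18 CPM (log2FC 0.85, FDR = 5.36e-05). *HLA-DRB1* and *HLA-DRB5* are near-identical copies, and *HLA-DMA* overlaps the abundant *BRD2*, so the values of these genes are uncertain.

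**Figure D2:**
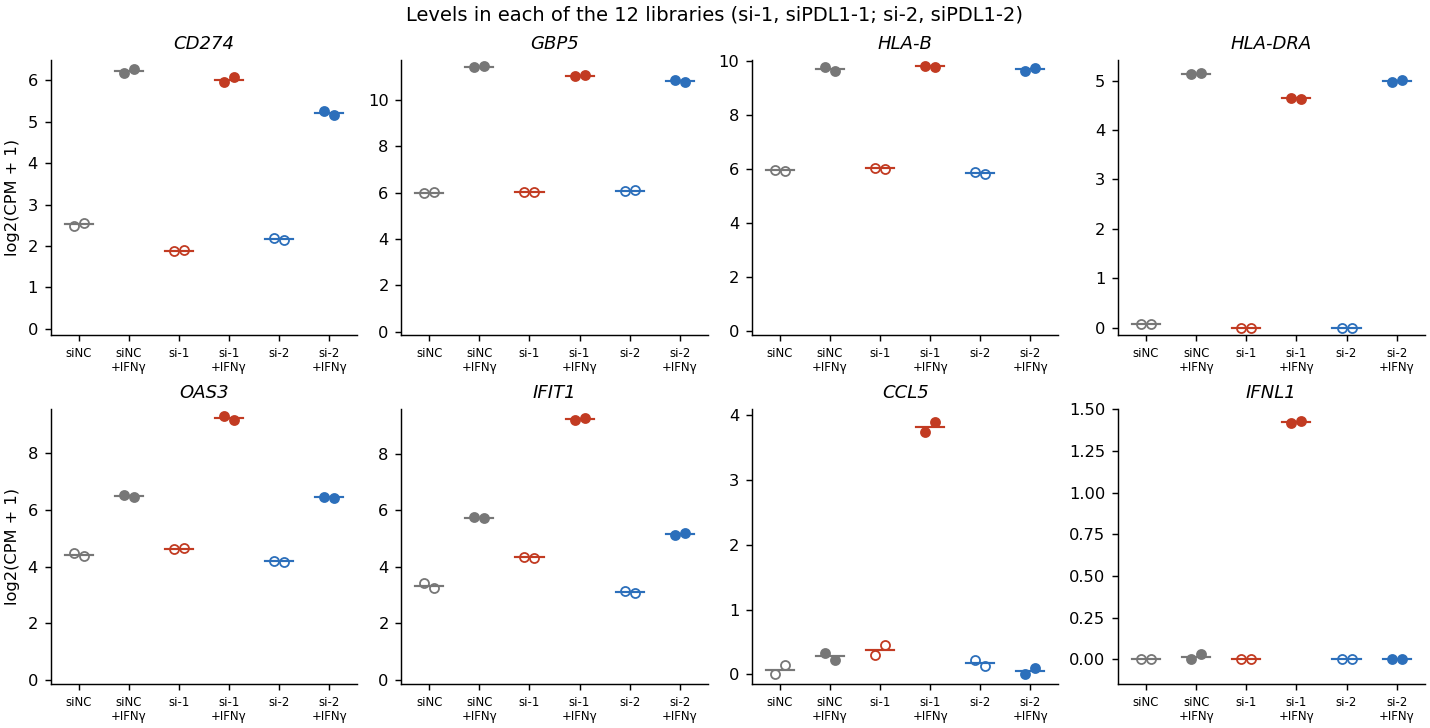
Levels of 8 genes in each of the 12 libraries, as log2 of CPM plus 1 on the y axis, with open points for unstimulated cells, filled points for IFNγ and a line at the mean of the 2 libraries. *GBP5*, *HLA-B* and *HLA-DRA* rise with each siRNA and *CD274* rises from its lowest level with siPDL1-1, while *OAS3*, *IFIT1*, *CCL5* and *IFNL1* are highest in the stimulated siPDL1-1 libraries.

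The panels of levels by library show *GBP5*, *HLA-B* and *HLA-DRA* beside genes for which the siRNAs differ. The guanylate binding proteins, GTPases that attack intracellular pathogens, lie together on chromosome 1, with *GBP1* at chr1:89052319-89065230, *GBP2* at chr1:89106132-89150456 and *GBP5* at chr1:89258950-89272804, all on the minus strand. Of 7 members tested with the related IRG genes, 6 rose, the median log2 change being 4.52, against 4.65 with siNC. *GBP5* was 63.5 and 64.3 CPM without and 2069 and 2125 CPM with IFNγ (log2FC 5.01, FDR = 7.87e-20), while *IRGQ*, at 44.0 and 45.2 CPM before and 42.5 and 42.2 CPM after IFNγ, was not called. *GBP1* was the member whose response was called larger than with siNC (difference 0.61, standard error 0.081, FDR = 2.93e-04), with an unstimulated level of 6.53 and 6.76 CPM with siPDL1-1 and 10.2 and 9.16 CPM with siNC and a stimulated level of 715 and 751 CPM with siPDL1-1 and 656 and 688 CPM with siNC. All 5 apolipoprotein L genes rose, a family on chromosome 22 that includes the trypanosome-lytic *APOL1*, with a median of 5.11. The largest was *APOL1*, from 1.62 and 1.60 CPM to 241 and 237 CPM, and the smallest *APOL2*, from 39.5 and 42.4 CPM to 273 and 252 CPM (log2FC 2.65, FDR = 1.44e-15). *APOL6* reached 491 and 488 CPM against 327 and 334 CPM with siNC, a called difference of 0.996 (standard error 0.079, FDR = 1.03e-06).

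Chemokines split into several patterns. Of 10 tested, 6 rose and 0 fell. The CXCR3 ligands lie side by side on chromosome 4, with *CXCL9* at chr4:76001275-76007509, *CXCL10* at chr4:76021118-76023497 and *CXCL11* at chr4:76033682-76041415, all on the minus strand. *CXCL9* had 0 reads without and 977 and 655 reads with IFNγ, at least 705-fold higher, or 27.7 and 30.8 CPM. *CXCL11* had 0 and 2 reads without and 882 and 690 reads with IFNγ, a 1018-fold rise with a 95% counting interval from 281 to 8415. With siNC *CXCL11* reached 61.7 and 67.2 CPM and with siPDL1-1 25.0 and 32.5 CPM, and its response was called smaller with siPDL1-1, with a difference of -1.16 (standard error 0.17, FDR = 6.72e-04). That call rests on 0 to 2 unstimulated reads and was lost with a pseudocount of 0.1 CPM (FDR = 0.0365), with edgeR's quasi-likelihood test (FDR = 0.781) and with DESeq2 (FDR = 0.774).

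*CCL5*, which attracts T cells and monocytes through a chemokine receptor, showed the opposite difference. It went from 0.232 and 0.377 CPM to 12.4 and 13.9 CPM with siPDL1-1 (log2FC 3.44, FDR = 3.11e-12), whereas with siNC it was 0 and 0.101 CPM without and 0.262 and 0.166 CPM with IFNγ and with siPDL1-2 0.168 and 0.0916 CPM before and 0 and 0.0661 CPM after IFNγ. Both stimulated siPDL1-1 libraries lay far above all the others, with 436 and 295 reads where no other library had over 16. The difference from siNC was 3.23 (standard error 0.17, FDR = 1.05e-08). It did not pass with edgeR's quasi-likelihood test (FDR = 0.0775) and was not called with DESeq2 either. *CX3CL1* (log2FC 0.91, FDR = 3.33e-08) and *CXCL16* (log2FC 0.67, FDR = 6.96e-07) rose too. The neutrophil chemokines *CXCL8* (1.60 and 1.74 CPM to 1.65 and 2.49 CPM) and *CXCL3* (1.48 and 1.62 CPM to 1.56 and 2.07 CPM) were not called with siPDL1-1, but both fell with siNC, *CXCL8* from 7.44 and 7.59 CPM to 3.20 and 2.80 CPM, and the difference was called for *CXCL8* (difference 1.28, FDR = 0.00190) and *CXCL3* (difference 0.98, FDR = 0.00910). Neither was called with a pseudocount of 0.1 CPM (FDR = 0.0108 for *CXCL8* and 0.0251 for *CXCL3*), edgeR called *CXCL8* (FDR = 0.00320) and not *CXCL3* (FDR = 0.0162), and DESeq2 gave no adjusted p for either. *CXCL2* and *CXCL3* are near-identical copies.

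Of 12 cytokines and TNF ligands tested, 8 rose and 0 fell, the median log2 change being 1.01. *IL18BP*, a secreted inhibitor of IL-18, went from 8.50 and 7.23 CPM to 161 and 155 CPM (log2FC 4.17, FDR = 1.11e-15) and reached 152 and 139.9 CPM with siNC. *TNFSF10* encodes TRAIL, a ligand that triggers apoptosis through death receptors. It rose from 10.6 and 9.72 CPM to 146 and 156 CPM with siPDL1-1 and from 11.4 and 10.5 CPM to 44.3 and 46.5 CPM with siNC, a called difference of 1.81 (standard error 0.11, FDR = 3.05e-08). *IL15*, which sustains T and NK cells, rose by 2.58 on the log2 scale (FDR = 7.78e-11), *CSF1*, a macrophage growth factor, by 1.56 on the log2 scale (FDR = 8.63e-13), and *IL6*, the smallest increase of the list, from 1.33 and 1.77 CPM to 2.95 and 2.92 CPM (log2FC 0.63, FDR = 0.00344). *LIF* was 20.0 and 20.5 CPM without and 21.5 and 18.0 CPM with IFNγ and was not called, whereas with siNC it fell from 22.5 and 25.5 CPM to 11.2 and 11.6 CPM, and that difference was called (difference 0.97, FDR = 2.13e-04).

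A list of 11 genes was taken from the text of the study. It gives all but *JAK2* as immunosuppressive genes, and *JAK2* as acting upstream of such genes. Of these, 9 rose with siPDL1-1 and 0 fell, the median log2 change being 2.42 against 2.03 with siNC. *SERPINA3*, on the list before it was cut to genes in that text, fell, as given below. *LGALS9*, which encodes galectin-9, a ligand of TIM-3, rose from 9.63 and 8.57 CPM to 82.1 and 75.2 CPM, whereas with siNC it reached 31.2 and 29.8 CPM, a called difference of 0.95 (standard error 0.12, FDR = 1.28e-04). Of the other members, *FAS* had a called excess over siNC, and *SOCS1* had the one that was lost in the settings given above. *NOS2*, the inducible nitric oxide synthase, rose from 0.754 and 1.06 CPM to 3.94 and 3.67 CPM (log2FC 1.34, FDR = 1.07e-06) with no called difference from siNC. *IL20RA* (log2FC 0.37, FDR = 0.0299) and *TDO2* (log2FC -0.034, FDR = 0.818) were not called. In the kynurenine pathway, 2 of 9 genes rose. Beside *IDO1* this was *WARS1*, the tryptophanyl-tRNA synthetase, from 111 and 108 CPM to 2441 and 2387 CPM (log2FC 4.45, FDR = 1.28e-19). *IDO1* itself reached 243 and 233 CPM with siPDL1-1, 508 and 516 CPM with siNC and 237 and 244 CPM with siPDL1-2. Its response was called smaller with siPDL1-1 than with siNC, with a difference of -0.92 (FDR = 2.68e-05), but the unstimulated libraries held 0 and 1 reads with siPDL1-1 and 4 and 4 with siNC, and the sign turned with a pseudocount of 0.1 CPM (0.029), with edgeR (1.98) and with DESeq2 (2.29). *KYNU*, kynureninase, was 8.35 and 7.79 CPM without and 6.95 and 5.97 CPM with IFNγ and was not called.

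The antiviral genes that ISGF3 is known to drive rose more in siPDL1-1 cells than with either of the other siRNAs. Of 34, 32 rose, the median log2 change being 4.58, against 2.32 with siNC and 2.34 with siPDL1-2. Summed over the list, the level went from 861 and 855 CPM to 10626 and 10472 CPM with siPDL1-1 and from 621 and 598 CPM to 2444 and 2444 CPM with siNC. With siPDL1-2 the sums were 669 and 670.2 CPM before and 2603 and 2670.4 CPM after IFNγ, so the 2 stimulated siPDL1-1 libraries lay far above all the others. The response was called larger than with siNC in 29 of the 34 genes, where 0.890% of all genes were, and larger than with siPDL1-2 in 30, where 4.32% of all genes were. With a pseudocount of 0.1 CPM the count against siNC was 25, with edgeR's quasi-likelihood test 22 and with DESeq2's Wald test 23. The median difference from siNC was 2.15, where that over all genes was -0.024.

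The oligoadenylate synthetases, which are activated by double-stranded RNA, lie in a row on chromosome 12, with *OAS1* at chr12:112906783-112933222, *OAS3* at chr12:112938444-112973251 and *OAS2* at chr12:112978395-113011723, all on the plus strand. *OAS3*, whose 2 ISRE matches are shown above, went from 23.6 and 24.1 CPM to 630.2 and 583 CPM in siPDL1-1 cells. With siNC it went from 21.2 and 19.8 CPM to 90.3 and 86.7 CPM and with siPDL1-2 from 17.5 and 16.9 CPM to 88.0 and 84.7 CPM. The 3 unstimulated groups were thus close and the stimulated siPDL1-1 libraries stood apart, with a log2 fold change of 4.61 (FDR = 4.78e-18) and a difference from siNC of 2.55 (standard error 0.078, FDR = 7.79e-11). *OAS1* rose from 3.92 and 4.00 CPM to 239 and 234 CPM with siPDL1-1 and from 0.539 and 0.886 CPM to 11.4 and 10.8 CPM with siNC, a difference of 2.76 (standard error 0.15, FDR = 1.50e-08). For *OAS2*, from 1.48 and 2.02 CPM to 372 and 368 CPM with siPDL1-1 and 0.0979 and 0.127 CPM to 16.9 and 17.7 CPM with siNC, the difference was 3.04 (FDR = 3.01e-09). *OAS2* already stood higher in unstimulated siPDL1-1 cells (log2 difference 1.30, FDR = 2.62e-07), and on the read counts the difference between the responses did not pass, with 0.57 by edgeR (FDR = 0.740) and 0.53 by DESeq2 (FDR = 0.808). For *OASL* edgeR gave a difference of 0.43 (FDR = 0.717).

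The IFIT genes, whose products bind viral RNA, form a cluster on chromosome 10, with *IFIT2* at chr10:89283694-89309271, *IFIT3* at chr10:89327997-89340971, *IFIT1* at chr10:89392546-89406487 and *IFIT5* at chr10:89414568-89420997, all on the plus strand. *IFIT1* rose from 19.5 and 18.8 CPM to 581 and 613 CPM with siPDL1-1, from 9.69 and 8.55 CPM to 52.9 and 51.6 CPM with siNC and from 7.76 and 7.32 CPM to 34.2 and 35.6 CPM with siPDL1-2. Its response was larger than with siNC by 2.49 (standard error 0.091, FDR = 2.43e-10), and its unstimulated level was already higher by 0.996 (FDR = 4.77e-08). *IFIT2* (difference 2.19, FDR = 1.08e-09), *IFIT3* (difference 1.58, FDR = 5.72e-08) and *IFIT5* (difference 1.25, FDR = 3.93e-07) also differed. *LIPA* overlaps *IFIT1*, *IFIT2* and *IFIT3* on the other strand.

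Among the other effectors, *MX2*, a GTPase that restricts viruses including HIV, had the largest difference from siNC. It went from 1.25 and 1.18 CPM to 144 and 138 CPM with siPDL1-1, while with siNC it reached 4.16 and 4.07 CPM and with siPDL1-2 5.51 and 5.98 CPM, and the difference of 3.86 (standard error 0.16, FDR = 1.08e-09) lost its call with a pseudocount of 0.1 CPM (2.60, FDR = 0.0128). *IFI6*, a mitochondrial and ER protein, rose from 33.6 and 32.2 CPM to 501 and 461 CPM against 17.7 and 19.8 CPM to 55.7 and 47.3 CPM with siNC (difference 2.42, FDR = 3.29e-08). *RSAD2*, which encodes viperin, rose from 0.406 and 0.212 CPM to 54.5 and 54.0 CPM and its neighbour *CMPK2*, a nucleotide kinase on the other strand that overlaps it, from 0.319 and 0.212 CPM to 32.7 and 34.6 CPM. With siNC *RSAD2* had 0 reads unstimulated and 2.27 and 2.18 CPM after IFNγ, at least 41.8-fold higher, so its difference between responses (difference 3.72, FDR = 2.66e-09) depends on the pseudocount and turned sign with edgeR (-1.77) and DESeq2 (-0.88). The difference for *CMPK2* (difference 3.25, FDR = 3.10e-08) was not called with edgeR (FDR = 0.135) or DESeq2 (FDR = 0.0443). *XAF1* was near 0 in unstimulated siNC cells too, and its difference (2.01, FDR = 3.05e-08) likewise turned sign, to -0.73 with edgeR and -0.93 with DESeq2. *DDX60* (difference 2.02, FDR = 1.08e-09), *IFI44* (difference 2.21, FDR = 6.46e-09), *IFI44L* (difference 2.11, FDR = 3.10e-08) and *SAMD9* (difference 2.29, FDR = 2.66e-09) had differences called in each of these settings.

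Of the ISG15 system, which attaches a ubiquitin-like protein to others, the ISGF3-type list held *ISG15*, *HERC5* and *USP18*. These rose, as did *HERC6*, and other enzymes of the system were in no list. *ISG15* itself rose from 27.0 and 25.7 CPM to 616 and 527 CPM with siPDL1-1 and from 14.8 and 17.4 CPM to 90.7 and 69.1 CPM with siNC, a difference of 2.15 (standard error 0.18, FDR = 6.75e-05). *HERC5*, its ligase, rose from 14.7 and 14.97 CPM to 145 and 147 CPM, while with siNC it went from 14.7 and 14.9 CPM to 24.6 and 24.4 CPM (difference 2.53, FDR = 1.51e-10). *HERC6*, a paralog of HERC5, rose from 5.19 and 6.00 CPM to 36.7 and 37.3 CPM, while with siNC it was 4.505 and 3.52 CPM before and 3.80 and 4.52 CPM after IFNγ and was not called (difference 2.48, FDR = 1.36e-07). The 5 genes without a called difference were *BST2* (difference 0.31, FDR = 0.0393), *IFITM1* (difference 0.51, FDR = 4.72e-05), *IFITM2* (difference 0.31, FDR = 0.0212), *IFITM3* (difference 0.31, FDR = 0.0644) and *MX1* (difference 0.32, FDR = 0.449). *BST2*, or tetherin, rose from 27.5 and 27.7 CPM to 406 and 383 CPM with siPDL1-1 and from 13.9 and 13.4 CPM to 161 and 164 CPM with siNC, so that it stood higher with siPDL1-1 both before and after IFNγ. *MX1* was 3.02 and 3.88 CPM without and 4.14 and 4.19 CPM with IFNγ and was the smallest change of the list (log2FC 0.22, FDR = 0.216), although it is widely used as a marker of type I interferon in other cells.

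**Figure D3:**
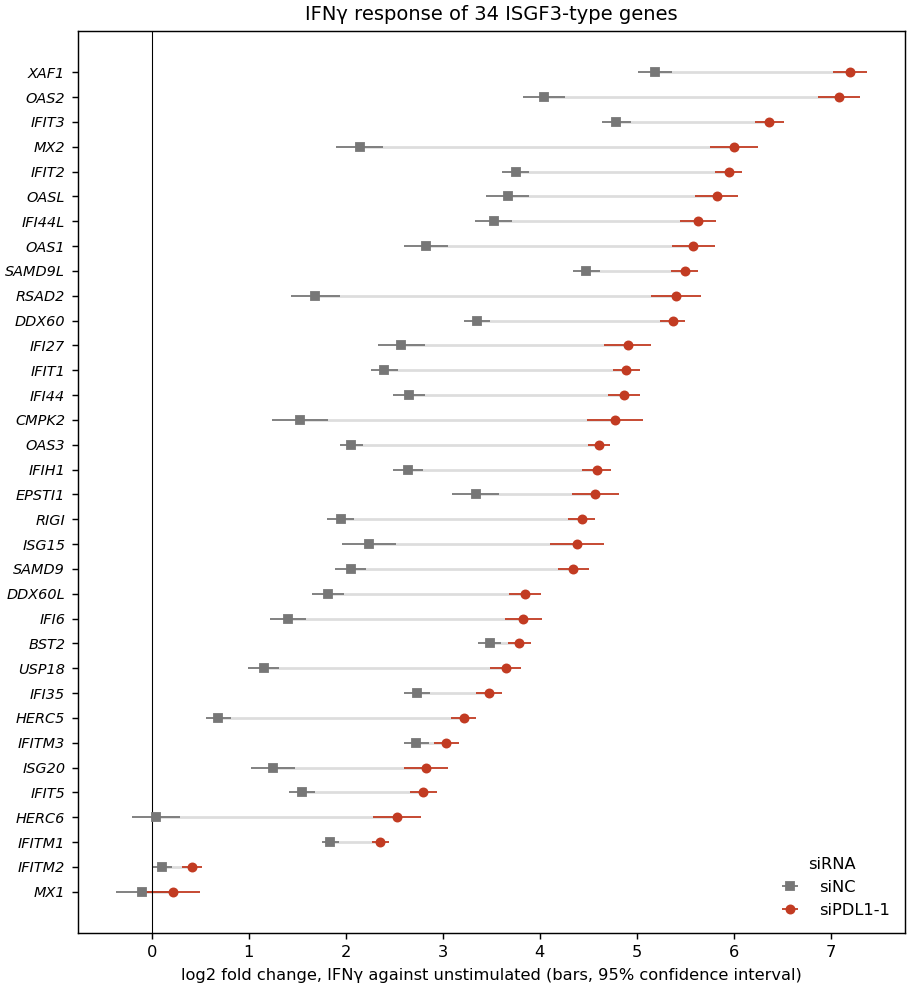
Log2 fold change after IFNγ (x axis) of the 34 ISGF3-type genes (y axis) in siNC cells (grey squares) and in siPDL1-1 cells (red circles), with 95% confidence intervals of the fit. The siPDL1-1 value lies to the right for all but *MX1*, *IFITM2*, *IFITM3*, *BST2* and *IFITM1* by a called difference.

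The plot of the ISGF3-type genes shows their responses one by one. Sensors of foreign nucleic acid, which in turn induce interferons, also rose. Of 14 tested, 11 rose, with a median of 2.33 against 1.11 with siNC, and 9 had a called excess over siNC, *IFIH1* and *RIGI* among them being counted in the ISGF3-type list too. *RIGI* (listed as *DDX58*), the sensor of RNA with a 5′ triphosphate, rose from 16.6 and 18.9 CPM to 402 and 404 CPM with siPDL1-1, from 11.6 and 12.1 CPM to 47.9 and 49.0 CPM with siNC and from 13.6 and 13.6 CPM to 44.4 and 41.0 CPM with siPDL1-2. The difference from siNC was 2.48 (standard error 0.090, FDR = 2.43e-10). *IFIH1*, which encodes MDA5, rose from 7.19 and 7.39 CPM to 191 and 205 CPM against 52.3 and 55.3 CPM with siNC (difference 1.94, FDR = 1.05e-08), and *EIF2AK2*, the RNA-activated kinase PKR, from 123 and 125 CPM to 721 and 809.5 CPM against 274 and 278 CPM (difference 1.35, FDR = 4.21e-08). *ZBP1*, a sensor of Z-form nucleic acid that can start necroptosis, had 1 read in the 2 unstimulated libraries together and 282 reads after IFNγ, a 365-fold rise with a 95% counting interval from 65.0 to 14479. It reached 5.19 and 4.66 CPM, against 0.506 and 0.374 CPM with siNC (difference 2.02, FDR = 8.75e-07), a difference that did not pass with edgeR (FDR = 0.915) and had no adjusted p with DESeq2. *STING1* (log2FC 0.32, FDR = 9.80e-04) and *MAVS* (log2FC -0.12, FDR = 0.103), which act downstream of the sensors, were not called, and *CGAS* was below the filter.

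Transcripts of type I and type III interferons themselves appeared at low levels in stimulated siPDL1-1 cells. *IFNL1*, which encodes IFNλ1, had 0 reads in both unstimulated siPDL1-1 libraries and 59 and 36 reads after IFNγ, at least 41.0-fold higher. In the other 8 libraries it had 1 read in all. *IFNB1* had 0 reads without and 18 and 26 reads with IFNγ, at least 19.0-fold higher, and 2 and 2 reads in the stimulated siNC libraries. *IFNL2*, nearly identical in sequence to *IFNL3*, had 0 reads without and 28 and 14 reads with IFNγ, at least 18.1-fold higher, and *IFNL3* 0 and then 11 and 4, at least 6.48-fold higher. These bounds take 3 counts over the group as the limit that a count of 0 allows, and they cover counting error only. The level reached was 1.67 and 1.69 CPM for *IFNL1* and 0.511 and 1.22 CPM for *IFNB1*. The response differed from that with siNC for *IFNL1* (difference 1.41, standard error 0.14, FDR = 1.47e-05) and *IFNL2* (difference 0.79, FDR = 0.00494), while *IFNB1* did not pass (difference 0.82, FDR = 0.0399). On the read counts neither was called, since edgeR gave an FDR of 1.00 for both and DESeq2 no adjusted p, and with a pseudocount of 0.1 CPM *IFNL1* was called (FDR = 0.00301) and *IFNL2* was not (FDR = 0.0305). Against siPDL1-2 *IFNB1* was called, with a difference of 0.87 (FDR = 0.00682), and not called with edgeR (FDR = 0.0411). *IFNA1* had 1 read in 1 stimulated siPDL1-1 library and *IFNA2* had 0 in all 12, which at this depth does not show that they are absent. The receptor genes *IFNAR1* (log2FC 0.48, FDR = 1.23e-05), *IFNAR2* (log2FC 0.22, FDR = 0.104), *IFNLR1* (log2FC 0.12, FDR = 0.407) and *IL10RB* (log2FC 0.17, FDR = 0.0323) were measured in all libraries and were not called.

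All 13 TRIM, PARP and DTX3L genes, most of them antiviral ubiquitin ligases or ADP-ribosyltransferases, rose with siPDL1-1, the median log2 change being 2.79 against 1.76 with siNC. The largest increase was in *TRIM22*, from 7.34 and 7.96 CPM to 344 and 372 CPM against 123 and 129.7 CPM with siNC (difference 1.05, FDR = 1.84e-04), and the smallest in *TRIM26*, from 43.2 and 42.6 CPM to 83.4 and 75.2 CPM (log2FC 0.87, FDR = 5.59e-09). A called excess over siNC was found in 7, with the same count under the pseudocount of 0.1 CPM, edgeR and DESeq2. *TRIM25*, the ligase that activates RIG-I, rose from 135 and 135 CPM to 467 and 441 CPM against 188 and 179.9 CPM with siNC (difference 1.12, FDR = 1.50e-08), and *PARP12* from 22.2 and 20.3 CPM to 178 and 173 CPM against 64.6 and 65.6 CPM (difference 1.23, FDR = 6.86e-08). *PARP14*, in contrast, rose from 123 and 122 CPM to 1401 and 1407 CPM with a difference from siNC of 0.14 (FDR = 0.201) that did not pass.

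Of 14 cell death genes, 10 rose and 0 fell, and 4 had a called excess over siNC, *TNFSF10*, *ZBP1*, *FAS* and *MLKL*. *FAS*, a death receptor, went from 4.21 and 4.52 CPM to 27.98 and 27.6 CPM with siPDL1-1 and from 8.23 and 7.19 CPM to 27.3 and 29.6 CPM with siNC, with an overlap of the 2 groups only after IFNγ (difference 0.67, FDR = 0.00683). On the other strand *ACTA2*, with a mean of 15.4 CPM over all libraries, overlaps *FAS* (16.6 CPM). *MLKL*, which permeabilises membranes in necroptosis, rose from 12.5 and 15.1 CPM to 47.9 and 47.6 CPM against 23.6 and 24.1 CPM with siNC (difference 0.67, FDR = 0.00532). *CASP1*, the inflammatory caspase, rose from 1.71 and 1.55 CPM to 25.2 and 24.1 CPM (log2FC 3.28, FDR = 1.79e-13), *CASP8* was the smallest called increase (log2FC 0.96, FDR = 1.20e-07), and the TRAIL receptor gene *TNFRSF10B* was 173 and 172 CPM before and 184 and 172 CPM after IFNγ.

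Of 14 complement genes, 9 rose, with a median of 2.16 against 1.63 with siNC. *SERPING1*, the C1 inhibitor, rose from 3.31 and 2.90 CPM to 105 and 106 CPM against 46.7 and 44.7 CPM with siNC, the 1 called difference of the list (difference 0.75, standard error 0.13, FDR = 0.00442). It was not called with a pseudocount of 0.1 CPM (FDR = 0.0663), edgeR (FDR = 0.0751) or DESeq2 (FDR = 0.0697). *C3*, the central component, was the smallest increase, from 42.5 and 41.0 CPM to 88.8 and 83.9 CPM (log2FC 1.03, FDR = 4.81e-10), and the membrane inhibitors *CD46*, *CD55* and *CD59* were not called. *C4A* and *C4B* are near-identical copies whose reads can be shared. Of 7 adhesion genes, *VCAM1* (12.2 and 11.2 CPM to 104 and 104 CPM), *CD47* (40.6 and 41.1 CPM to 118 and 130.5 CPM) and *ICAM1* (0.261 and 0.212 CPM to 1.79 and 1.60 CPM) rose, and 0 differed from siNC. CD47 is a signal that restrains phagocytosis, whereas VCAM1 and ICAM1 bind integrins of leukocytes.

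**Figure D4:**
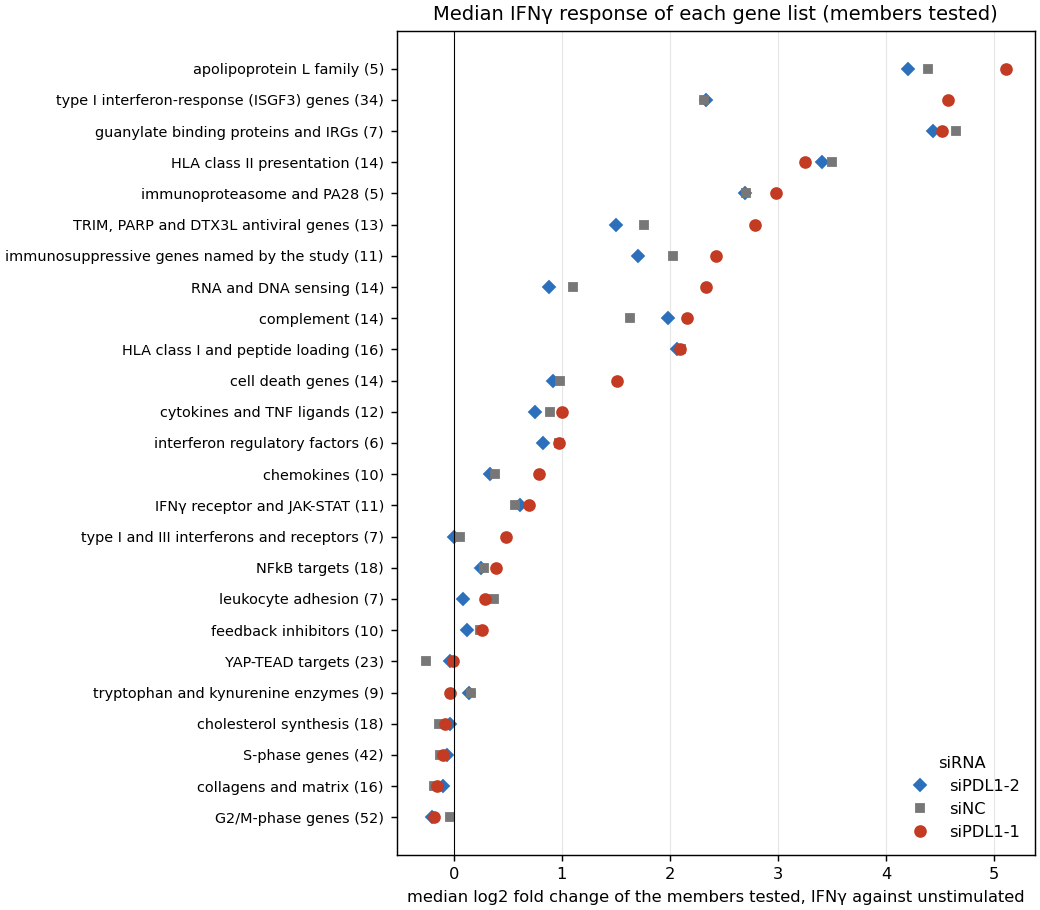
Median log2 fold change after IFNγ (x axis) over the tested members of 25 gene lists (y axis) in siPDL1-2 (blue diamonds), siNC (grey squares) and siPDL1-1 cells (red circles). The medians of the HLA class I genes coincide near 2.1, while for the ISGF3-type genes siPDL1-1 stands at 4.58 and both others near 2.3.

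The plot of list medians gives the same comparison for all 25 lists, including those with little change. Genes that fell did so by smaller amounts. The largest named decrease was in *NT5DC2*, which encodes a protein with a nucleotidase domain, from 139.8 and 135 CPM to 44.1 and 44.1 CPM (log2FC -1.62, FDR = 2.03e-13), with siNC at 101 and 105 CPM before and 42.9 and 43.2 CPM after IFNγ. The serpins *SERPINA3*, or antichymotrypsin, and *SERPINA5*, an inhibitor of activated protein C, fell from 36.9 and 37.6 CPM to 13.3 and 12.9 CPM (log2FC -1.44, FDR = 3.15e-09) and from 32.5 and 33.4 CPM to 13.8 and 14.1 CPM (log2FC -1.18, FDR = 1.83e-09). *DANCR*, a long noncoding RNA, fell from 131 and 131 CPM to 49.3 and 47.6 CPM (log2FC -1.42, FDR = 2.53e-12), and *PMEPA1*, a target and inhibitor of TGF-β signalling, from 172 and 178 CPM to 67.4 and 68.9 CPM (log2FC -1.35, FDR = 1.16e-11). The rule further gave *PPP1R1B* (log2FC -1.29, FDR = 1.70e-06), *SCN4B* (log2FC -1.27, FDR = 3.52e-07), *ADAMTS15* (log2FC -1.18, FDR = 3.90e-07) and *LMCD1* (log2FC -1.14, FDR = 1.14e-09). None of these 9 decreases passed the test of a difference from siNC, although *NT5DC2*, *DANCR* and *PMEPA1* had an FDR under 0.01 with a difference below the fold limit. Of the 233 genes that fell, *MAF*, *HILPDA* and *IGFBP3* fell more than with siNC and 2, *ANKRD1* and the clone-named *AC019117.2*, fell less. *MAF*, a transcription factor of the AP-1 superfamily, fell from 14.996 and 16.03 CPM to 7.89 and 8.99 CPM with siPDL1-1 and was 10.1 and 11.1 CPM before and 11.3 and 11.0 CPM after IFNγ with siNC (difference -0.87, standard error 0.13, FDR = 6.85e-04). *HILPDA*, a lipid droplet protein induced by hypoxia, fell from 145 and 144 CPM to 96.1 and 91.8 CPM and was 140.3 and 139 CPM before and 146 and 151 CPM after IFNγ with siNC (difference -0.70, standard error 0.063, FDR = 3.98e-06). *IGFBP3*, a binding protein of insulin-like growth factors, fell from 603 and 601 CPM to 306 and 317 CPM, from a level above that of siNC (401 and 414 CPM) to one near it (326 and 330.0 CPM).

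Among 23 targets of YAP and TEAD, the effectors of the Hippo pathway, *NT5E* (log2FC 1.17, FDR = 2.30e-09) and *RBMS3* (log2FC 0.87, FDR = 1.81e-07) rose and *ANKRD1* (log2FC -1.09, FDR = 9.76e-10) and *IGFBP3* (log2FC -0.95, FDR = 6.94e-12) fell. *CCN2*, the connective tissue growth factor, was 21.2 and 19.2 CPM without and 17.4 and 16.3 CPM with IFNγ and was not called, while with siNC it fell from 40.2 and 40.7 CPM to 16.7 and 16.2 CPM (difference 0.996, standard error 0.10, FDR = 1.65e-05 for the difference). *ANKRD1* likewise ended near the same level in both, 24.1 and 26.8 CPM with siPDL1-1 and 24.4 and 25.3 CPM with siNC, from 55.1 and 55.4 CPM and 99.4 and 106 CPM before (difference 0.91, FDR = 4.89e-06). In all, 4 of the 23 differed upward from siNC (*ANKRD1*, *CCN2*, *AMOTL2* and *NUAK2*) and 1, *IGFBP3*, downward, and 5 were lower with siPDL1-1 before stimulation. Over all genes 0.890% differed upward from siNC, 0.0779% downward, and 1.45% were lower before stimulation. After IFNγ 5.58% of all genes rose with siPDL1-1 and 1.30% fell. Of 18 NFkB targets 6 rose, led by *SOD2*, the mitochondrial superoxide dismutase (69.8 and 70.0 CPM to 159 and 167 CPM, log2FC 1.21, FDR = 3.60e-12), and the response of 1, *CXCL8*, differed from siNC, with the limits given above. Of 42 S-phase genes 0 were called, and of 52 G2/M genes 1, *PSRC1*, rose (log2FC 0.69, FDR = 9.39e-08), with medians of -0.099 and -0.19. *MKI67*, the Ki-67 gene, was 553 and 553 CPM without and 405 and 377 CPM with IFNγ (log2FC -0.50, FDR = 5.41e-06), under the fold limit. Of 16 collagen and matrix genes 0 were called, and of 18 cholesterol synthesis genes *MSMO1* rose (log2FC 0.62, FDR = 1.01e-05), a share near that of all genes.

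The 160 responses that lay above those with siNC were of several kinds. In 82 the gene rose with both siRNAs and more with siPDL1-1, in 49 it rose with siPDL1-1 and was not called with siNC, and in 10 it fell with siNC and was not called with siPDL1-1. A further 16 were called with neither, 2 fell with both, and 1, *PTCHD4*, rose with siPDL1-1 and fell with siNC. Of the 160, 125 had at least 1 CPM in both unstimulated groups, and 117 were called under the pseudocount of 0.1 CPM, edgeR and DESeq2 as well. *IL4I1*, a secreted enzyme that oxidises phenylalanine and tryptophan, was among the 8 with the largest difference. It was 0.667 and 0.659 CPM without and 10.7 and 10.1 CPM with IFNγ in siPDL1-1 cells, and with siNC 0.783 and 0.607 CPM before and 0.899 and 0.830 CPM after IFNγ (difference 2.64, standard error 0.17, FDR = 6.48e-08). However, *IL4I1* overlaps the far more abundant *NUP62* on the same strand, so its values are uncertain. Over all libraries the means were 2.30 CPM for *IL4I1* and 105 CPM for *NUP62*. Of the 14 responses that lay below those with siNC, 8 were called in all of these settings. *CLIC2*, a chloride channel protein, rose from 1.74 and 1.44 CPM to 6.81 and 8.47 CPM with siPDL1-1 and from 1.57 and 1.14 CPM to 15.9 and 16.9 CPM with siNC (difference -1.16, standard error 0.19, FDR = 0.00198). *A2M*, the protease inhibitor alpha-2-macroglobulin, rose from 80.4 and 85.8 CPM to 254 and 239.8 CPM and with siNC from 57.8 and 54.1 CPM to 276 and 276 CPM (difference -0.72, standard error 0.072, FDR = 1.37e-05). *TCAF2*, which has near-identical copies, differed by -0.79 (FDR = 0.005001).

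Against siPDL1-2, the genes of the named rule with the largest excess were *MX2* (difference 3.61, FDR = 1.73e-09), *CCL5* (difference 3.57, FDR = 2.56e-09), *RSAD2* (difference 3.42, FDR = 4.59e-09), *RIGI* (difference 2.85, FDR = 5.23e-11) and *CMPK2* (difference 2.82, FDR = 1.33e-07). Of these 5, *RSAD2* was not called with edgeR (FDR = 0.710) or DESeq2 (FDR = 0.695). *CXCL10*, which had no called difference from siNC, reached 226 and 261 CPM with siPDL1-1 and 69.7 and 72.5 CPM with siPDL1-2 (difference 1.70, standard error 0.12, FDR = 2.35e-07), which edgeR (FDR = 0.680) and DESeq2 (FDR = 0.605) did not call. *JAK2* and *GBP4* also had larger responses than with siPDL1-2, by 1.03 (FDR = 9.01e-06) and 0.73 (FDR = 5.60e-04), and for *GBP4* the call was lost with a pseudocount of 0.1 CPM (FDR = 0.117), edgeR (FDR = 0.400) and DESeq2 (FDR = 0.401). On the lower side, *TMEM160* (difference -1.40, FDR = 5.10e-04), *NOG*, which encodes the BMP antagonist noggin (difference -1.39, FDR = 1.09e-04), *SOX18* (difference -1.34, FDR = 0.00270) and *FEM1A* (difference -1.26, FDR = 0.00394) rose with siPDL1-2 and were not called with siPDL1-1, as did *GAGE12J* (difference -1.37, FDR = 0.00467), one of many near-identical copies. *FEM1A*, with a mean of 5.13 CPM over all libraries, overlaps the more abundant *AC005523.2* (42.2 CPM) on the other strand. For *SOX18*, an endothelial transcription factor, the levels were 14.3 and 14.2 CPM before and 19.3 and 18.0 CPM after IFNγ with siPDL1-1 and 7.02 and 7.39 CPM before and 25.3 and 26.2 CPM after IFNγ with siPDL1-2.

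Some of the genes that responded differed before IFNγ was given. Of the 34 ISGF3-type genes, 14 were already higher in unstimulated siPDL1-1 than in siNC cells and 0 were lower, where 2.55% of all genes were higher, with a median log2 difference of 0.39. *OAS1* was 3.92 and 4.00 CPM with siPDL1-1, 0.539 and 0.886 CPM with siNC and 0.623 and 0.610 CPM with siPDL1-2 (log2 difference 1.54, FDR = 7.44e-08 against siNC), and *IFI44L* was 5.74 and 6.05 CPM with siPDL1-1, 1.37 and 1.62 CPM with siNC and 1.27 and 1.62 CPM with siPDL1-2 (log2 difference 1.47, FDR = 2.24e-08). Not all were called before stimulation. *HERC5* (log2 difference 0.00033, FDR = 1.00) and *USP18* (log2 difference -0.0088, FDR = 0.950) were not. *OAS3* (log2 difference 0.21, FDR = 0.00968) was slightly higher and passed the FDR limit but not the fold limit. *HERC5*, *USP18* and *OAS3* had differences in response of over 2. The largest unstimulated differences by the rule were in genes outside the interferon lists. *GABRP*, a GABA receptor subunit (log2 difference 1.70, FDR = 4.46e-08), *PALD1* (log2 difference 1.57, FDR = 5.77e-09), the kinase *NEK7* (log2 difference 1.57, FDR = 3.95e-07) and the chromobox gene *CBX1* (log2 difference 1.54, FDR = 2.51e-11) were higher. *RGS4*, a regulator of G-protein signalling (log2 difference -1.71, FDR = 2.42e-09), *CXCL8* (log2 difference -1.67, FDR = 8.88e-07), *FILIP1* (log2 difference -1.67, FDR = 1.29e-05), *CXCL2* (log2 difference -1.28, FDR = 3.83e-06) and *IFRD2* (log2 difference -1.25, FDR = 5.66e-08) were lower. *FILIP1*, with a mean of 2.09 CPM over all libraries, overlaps *TMEM30A-DT* (2.39 CPM) on the other strand. *CBX1* was 145 and 139.5 CPM with siPDL1-1, 46.8 and 49.4 CPM with siNC and 138 and 138 CPM with siPDL1-2, and its response to IFNγ (log2FC -0.055, FDR = 0.399) was not called. Of 52 G2/M genes 15 were lower in unstimulated siPDL1-1 cells, where 1.45% of all genes were, with a median of -0.53, and of 16 collagen and matrix genes 7 were higher. These differences were tested in unstimulated cells only. Whether they remained after IFNγ, and their part in the IFNγ response, was not tested.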

How the data were processed

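The 12 U251 libraries were polyA RNA-seq. The authors mapped reads to GRCh38 with CLC Genomics Workbench, counted both strands together without broken pairs, although the labels name a stranded kit, and deposited 1 table of CPM, a normalized signal for 45416 genes. With 1 read per gene as the step, 100% of values were whole reads within 0.02, and 1 read was 0.0187 to 0.0586 CPM. The authors' further factors were 0.959 to 1.036. Library totals were 17101069 to 55657393 reads.

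Genes were kept with filterByExpr of edgeR 4.0.16 on these reads (minimum count 10, total 15), which left 17982. The test was limma 3.58.1 (R 4.3.3; trend and robust) on log2(CPM + 1), with the 6 groups of 2 libraries in 1 fit, Benjamini-Hochberg adjusted (FDR), and calls needed FDR < 0.01 and a fold over 1.5. Differences between responses are interaction contrasts. Alternatives were edgeR's quasi-likelihood test and DESeq2 1.42.0 on the recovered reads, other pseudocounts, filters and limits, each library left out, and replicate blocks. The scripts were tested on simulated data. For genes at 0 reads, bounds take 3 counts over the group; 95% intervals cover counting error only. Replicates differed beyond sampling noise (chi-square per gene 1.85 to 7.39) and each was counted as a library of its own.

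Named genes were the 10 largest increases and decreases after IFNγ, the 8 largest of each sign for the difference from siNC, and 5 of each for siPDL1-2 and for unstimulated cells, if called, at 1 CPM or more in the highest group compared and without a clone name. For the IFNγ effect and for unstimulated cells the groups also had to be free of overlap. The differences between responses had no such filter. Lists give their largest and smallest members, and the list of genes the study names for immunosuppression was cut to those in its text. Some genes that these rules pick are not reported here. The comparison, lists and tests were chosen with earlier results of these data known. Of the 50 named genes, 31 overlap another gene, 9 of them 1 with at least 50% of their level. Promoters came from RefSeq (GRCh38.p14), which held 70.5% of the tested genes.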

Additional observations from a re-analysis of the deposited data

Results flagged for a closer look

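All results here were picked out because the response to IFNγ in siPDL1-1 cells differed from that with another siRNA by a test of the difference itself. Values are differences of log2 fold changes, siPDL1-1 minus the other siRNA, and both comparisons use the same siPDL1-1 libraries.

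Against siNC, 160 genes responded toward higher and 14 toward lower values with siPDL1-1, and the lower count was 50 without the second stimulated siPDL1-1 library. The named genes on the higher side were *MX2* at 3.86, *RSAD2* at 3.72, *CMPK2* at 3.25, *CCL5* at 3.23, *OAS2* at 3.04, *OAS1* at 2.76, *IL4I1* at 2.64 and *OAS3* at 2.55. Those on the lower side were *CXCL11* and *CLIC2*, both at -1.16, *IDO1* at -0.92, *MAF* at -0.87, *TCAF2* at -0.79, *A2M* at -0.72 and *HILPDA* at -0.70.

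Against siPDL1-2, 777 genes responded toward higher and 99 toward lower values, counts that ran from 494 to 1216 and from 41 to 180 with 1 library left out. The named genes were *MX2* at 3.61, *CCL5* at 3.57, *RSAD2* at 3.42, *RIGI* (listed as *DDX58*) at 2.85 and *CMPK2* at 2.82 on the higher side and *TMEM160* at -1.40, *NOG* at -1.39, *GAGE12J* at -1.37, *SOX18* at -1.34 and *FEM1A* at -1.26 on the lower. *CD274*, the siRNA target, differed by 1.08, with both siRNAs aimed at it. Among the genes named against siNC, *CXCL11*, *IDO1* and the higher-side genes other than *OAS3* had under 1 CPM in both unstimulated siNC libraries, so the pseudocount of 1 CPM sets part of the size of their differences. Of the 8 on the higher side, *RSAD2*, *CMPK2*, *CCL5* and *OAS2* were not called with edgeR or with DESeq2, and *MX2* was not called with a pseudocount of 0.1 CPM. On the lower side *CXCL11* was not called with a pseudocount of 0.1 CPM, with edgeR or with DESeq2. The difference for *IDO1* turned positive in each of these settings. Against siPDL1-2, *RSAD2* was not called with edgeR (FDR = 0.710) or DESeq2 (FDR = 0.695).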

How the results depend on the processing

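The count of genes changed by IFNγ in siPDL1-1 cells was 1461 by edgeR's quasi-likelihood test and 1264 by DESeq2, and 1084 to 1608 with 1 library left out. Plain CPM gave 883 increases and 350 decreases. For the difference from siNC, edgeR gave 163, DESeq2 162 and leaving out 1 library 137 to 213, with 50 toward lower values without the second IFNγ siPDL1-1 library. For the difference from siPDL1-2 they gave 896, 904 and 545 to 1396, with 572 without the first unstimulated siPDL1-1 library, 1396 without the first IFNγ siPDL1-1 library, 560 without the second unstimulated siPDL1-2 library and 545 without the second IFNγ siPDL1-2 library. The unstimulated difference from siNC held 872, 743 and 604 to 748 genes. Without a fold limit the 4 counts, in this order, were 4122, 293, 2097 and 3379, and with a fold over 2 they were 495, 88, 204 and 78, since these limits only change how many genes qualify.

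The difference from siNC changed sign for *RSAD2* with edgeR (-1.77) and DESeq2 (-0.88), for *XAF1* (-0.73 and -0.93) and for *IDO1* (1.98 and 2.29, and 0.029 with a pseudocount of 0.1 CPM), all with few or 0 unstimulated reads. Of all gene values and list medians recomputed under alternatives, 1364 were counted as unchanged, 69 lost a call and 3 gained one. A gene value counted as unchanged if it stayed called or stayed uncalled, so an uncalled value could change sign. A further 7 gene values, called in the main setting or the alternative, changed sign. Another 34, all list medians, moved further than by leaving out any 1 siPDL1-1 library. The cause was not tested.

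Libraries with the same number in different groups did not deviate together, with correlations from -0.132 to 0.193, 2 of 15 pairs of groups over 0.1 and 0.0697 between the siPDL1-1 groups, so the numbers were not taken as pairs. With the replicate block the counts were 1230, 166, 874 and 721. Depth limits genes under about 1 CPM, and with 2 libraries a group the spread is borrowed across genes and groups.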

Other observations

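Among all genes tested, 222 rose after IFNγ in siPDL1-1 cells and were not called with siNC, and 49 of these passed the test of the difference itself. They include members of the lists described above, such as *HERC6* and *CCL5*. The genes that follow, apart from *LOX* and the glioma markers, are in none of those lists, and all were picked out after their values were seen. *PNPT1*, a mitochondrial RNA exonuclease, was 50.2 and 54.6 CPM without and 159 and 168 CPM with IFNγ in siPDL1-1 cells and 56.3 and 56.1 CPM and then 61.8 and 65.0 CPM with siNC, a difference of 1.45 (standard error 0.082, FDR = 2.13e-08) between the log2 fold changes. *N4BP1*, an RNA-degrading protein that restrains inflammation, rose from 63.0 and 63.8 CPM to 175 and 174 CPM with siPDL1-1 and from 57.7 and 56.5 CPM to 66.1 and 69.9 CPM with siNC (difference 1.197, FDR = 2.13e-08). The rise with siNC had an FDR of 7.13e-04 but lay below the fold limit. *SLFN5*, of the Schlafen family, rose from 64.5 and 66.2 CPM to 180.03 and 185 CPM against 71.2 and 74.4 CPM with siNC after IFNγ (difference 0.999, FDR = 6.38e-07). *CMTR1*, which methylates the mRNA cap, was 93.0 and 92.9 CPM and then 229.7 and 200.3 CPM with siPDL1-1 and 99.7 and 99.0 CPM and then 123 and 123 CPM with siNC (difference 0.89, FDR = 2.34e-06). The libraries of the siNC cells given IFNγ lay below both stimulated siPDL1-1 libraries for each of these 4 genes.

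Genes of other kinds showed the same pattern. *GMPR*, a guanosine monophosphate reductase, rose from 27.3 and 26.7 CPM to 69.4 and 64.5 CPM with siPDL1-1 and from 24.1 and 22.4 CPM to 29.8 and 29.2 CPM with siNC (difference 0.95, FDR = 4.63e-06). Its rise with siNC also lay below the fold limit (FDR = 4.95e-04). *RASGRP3*, an activator of Ras, went from 1.42 and 1.58 CPM to 8.63 and 8.66 CPM and was 1.54 and 1.47 CPM with siNC (difference 1.81, FDR = 2.34e-06). *CHROMR*, a long noncoding RNA, went from 9.25 and 10.0 CPM to 22.3 and 21.7 CPM against 8.35 and 8.76 CPM (difference 1.10, FDR = 4.53e-05). *CH25H*, which makes the antiviral lipid 25-hydroxycholesterol, and *MMP13*, a collagenase, reached 1.84 and 1.65 CPM and 2.72 and 2.87 CPM from under 1 CPM (differences 1.28, FDR = 4.42e-04, and 1.60, FDR = 4.57e-05), and the call for *MMP13* was lost with a pseudocount of 0.1 CPM (FDR = 0.0208) and with edgeR (FDR = 0.0698). In the opposite direction, *CP*, the copper protein ceruloplasmin, was 30.1 and 29.3 CPM without and 32.2 and 31.7 CPM with IFNγ in siPDL1-1 cells, whereas with siNC it went from 21.2 and 22.95 CPM to 38.1 and 38.9 CPM (difference -0.67, FDR = 4.75e-04). *LOX*, the collagen cross-linking enzyme lysyl oxidase, was 76.6 and 77.0 CPM and then 64.2 and 77.3 CPM with siPDL1-1 and 55.0 and 54.7 CPM and then 82.4 and 81.0 CPM with siNC (difference -0.69, FDR = 8.83e-04). Of the 8 glioma markers 6 were not called after IFNγ in siPDL1-1 cells, and the median log2 fold change was -0.25. *SOX2* rose from 117 and 116 CPM to 161 and 194 CPM (log2 fold change 0.60, FDR = 1.40e-04). *GFAP* fell from 7.25 and 6.85 CPM to 3.80 and 4.28 CPM (log2 fold change -0.68, FDR = 1.24e-04). With siNC 1 marker rose and 1 fell as well, and 0 of the 8 had a called difference from siNC. Against siPDL1-2, 1 marker had a called excess.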
